A study of Mus musculus with 2 samples.

Results

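The nuclear genes of respiratory complexes III and IV, with the electron carrier between them and their assembly factors, were followed in the mouse heart. Members were genes with at least 1 transcript of type protein_coding and a symbol of the complex III, cytochrome c, complex IV or assembly factor series (Uqcr, Uqcc, Cyc1, Cycs, Cox4 to Cox8, Cox10 to Cox20, Sco1, Sco2 and Surf1). The rule found 43 of the 55536 genes in the tables. These were 9 subunits of complex III, 17 of complex IV (isoforms counted singly), 3 assembly factors of complex III, 12 of complex IV, the carrier Cycs and the supercomplex factor Cox7a2l.

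Hearts came from 2 females of the strain B6CASTF1/J, a hybrid of a laboratory and a wild-derived parent, at an age of 25 days. Total RNA depleted of ribosomal RNA was sequenced, starting from 300 ng per library, with ERCC spike-in transcripts added. The libraries are biological replicates 1 and 2 of a single group per the labels, which give no treatment. They name a common donor for both samples and a different animal number for each, so 2 animals were assumed, on which every SD below rests. No condition was compared, so the results describe levels in this heart and differences between these 2 libraries.

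Complex III passes electrons from ubiquinol to cytochrome c, and complex IV, cytochrome c oxidase, passes them on to oxygen. Each has a catalytic core that is encoded at least in part by mitochondrial DNA and a shell of nuclear-encoded subunits. In heart and skeletal muscle several complex IV subunits are known to be made as muscle isoforms from genes of their own, beside ubiquitous ones. Assembly factors insert heme and copper or hold subunits together during building and are not part of the finished enzyme.

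Estimated counts assigned to genes summed to 42966739 in replicate 1 and 42720824 in replicate 2. Levels are given in TPM (transcript abundance per length, scaled to a total of 1000000 per library). They come from gene tables made from transcriptome alignments, called alignment-based. Values are given as replicate 1 and replicate 2 or as mean ± SD (n = 2). A second quantification from the reads, called read-based, was deposited per transcript and summed to genes. Of the cardiomyocyte markers of the labelled tissue 8 of 8 were detected, with Myh6 and Myl2, genes of the contractile apparatus, at 9642 ± 363 and 7908 ± 245 TPM. Of 8 fast skeletal muscle markers only Tnni2 reached 1 TPM in both libraries, and Myh1 and Myh4 were listed at 0. Their summed level was 3.74 and 3.72 TPM, with Tnni2 at 2.43 ± 0.438 and Mylpf at 0.750 ± 0.523 TPM.

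Several members have processed copies elsewhere in the genome, which share their letters and so their reads. The case without any difference is Cox7c, a small subunit of complex IV on chromosome 13 (chr13:86044816-86046904, minus strand, mm10). Its coding sequence of 192 bases, from exons between 86045753 and 86046675, is identical over its whole length to the processed pseudogene Gm12338 on chromosome 11 (chr11:75599763-75599954, minus strand). The sequence held by both is shown because no read inside it can be placed on 1 of the genes by its letters; capitals would mark a difference, and there are none.
Cox7c and Gm12338: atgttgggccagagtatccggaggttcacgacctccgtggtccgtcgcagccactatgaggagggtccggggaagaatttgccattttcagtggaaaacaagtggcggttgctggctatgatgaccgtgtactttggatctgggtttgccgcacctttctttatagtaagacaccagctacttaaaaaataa

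For Cycs, which encodes the soluble carrier cytochrome c (chr6:50562563-50566538, minus strand), the pseudogene Gm10108 on chromosome 5 (chr5:13121448-13121766) matches the coding sequence over 318 bases with 2 differences. They are G4A and G44A, where positions count from the A of the Cycs start codon and the Cycs base stands first. The 30 bases around each are shown with that base in capitals, since within this stretch only reads that cross these positions tell the genes apart by letters.
Cycs, coding bases 1 to 30: atgGgtgatgttgaaaaaggcaagaagatt
Gm10108, same bases: atgAgtgatgttgaaaaaggcaagaagatt
Cycs, coding bases 29 to 58: tttttgttcagaagtGtgcccagtgccaca
Gm10108, same bases: tttttgttcagaagtAtgcccagtgccaca

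All 9 complex III subunits were highly expressed and lay within 2.36-fold of each other by the alignments, with all transcripts counted. Uqcrq, a small subunit near the cytochrome b core, was the highest at 1062 and 1083 TPM. Uqcrc1, a core protein of the matrix side, had 986 and 965 TPM, while its partner Uqcrc2 had 458 and 452 TPM, the lowest alignment-based level of the 9. The libraries differed by far less than these genes did from each other.

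By the alignments the catalytic nuclear subunits of complex III were near the bottom of that range. Cyc1, cytochrome c1, had 485 and 478 TPM, and Uqcrfs1, the Rieske iron-sulfur protein, had 485 and 491 TPM. These levels did not differ beyond the spread of the replicates. By the read-based tables they were apart, with Cyc1 at 926 and 1013 TPM, the median of the 9, and Uqcrfs1 at 551 and 572, the lowest. Uqcrc2 was at 794 ± 4.28 TPM there, so the order at the bottom depended on the quantification. Of the read-based Cyc1 level only 31.0% and 23.8% lay in transcripts of type protein_coding, against 100% for Uqcrfs1. By the alignments, with all transcripts counted, the small subunits lay above both. Uqcrh, the acidic hinge protein, was at 806 ± 16.1 TPM and Uqcr11 at 759.5 ± 5.04 TPM. Only 31.6% and 32.2% of that Uqcrh level lay in transcripts of type protein_coding. Uqcrb, which contacts the quinone site, and Uqcr10 were at 621 ± 23.3 and 605 ± 17.5 TPM and did not differ beyond their spread.

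With isoforms counted singly, complex IV subunits covered a much wider range than those of complex III. The higher or only form of each subunit lay between 635 TPM (Cox7c) and 1838 TPM (Cox6b1) by the alignments. With the copies described below added, Cox7c was at 2384 and 2420 TPM, above Cox6b1. Without copies, the 2 highest members of the whole set by the alignments were in complex IV. They were Cox6b1 with 1858 and 1819 TPM and Cox4i1 with 1750 and 1793 TPM. Cox6b1 lies on the intermembrane side and Cox4i1 is the large regulatory subunit. The read-based values turned their order round and set them apart, with Cox4i1 at 2358 ± 206 and Cox6b1 at 1104 ± 102 TPM. Cox6c (2040 TPM), Cox7c (1703 TPM) and other subunits were above Cox6b1 by the reads. By the alignments 760 and 693 TPM of Cox6b1 lay in the retained intron transcript Cox6b1-202.

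A group of 5 subunits followed at nearly equal alignment-based levels. Cox5a had 1057 and 1056 TPM, Cox6c had 1058 and 1054, and Cox7a1 had 1039 and 1029.7. The muscle isoforms Cox8b and Cox6a2 had 991 and 1031 and 929 and 1031 TPM. All 5 thus lay between 929 and 1058 TPM, and Cox6a2 had the widest gap between the libraries among them. The read-based means spread further, with Cox6c at 2040, Cox8b at 1667, Cox5a at 1373, Cox7a1 at 1365 and Cox6a2 at 953.5 TPM.

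Below them lay Cox5b at 833 ± 18.0, Cox7b at 657 ± 0.672 and Cox7c at 635 ± 1.82 TPM. Cox5b binds zinc on the matrix side, and Cox7b and Cox7c are small single-span subunits. By the read-based tables Cox7b (1362 ± 15.6 TPM) and Cox7c (1703 ± 6.76 TPM) stood above Cox5b (1098 ± 27.2 TPM), so the order of these 3 depended on the quantification.

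**Figure D1:**
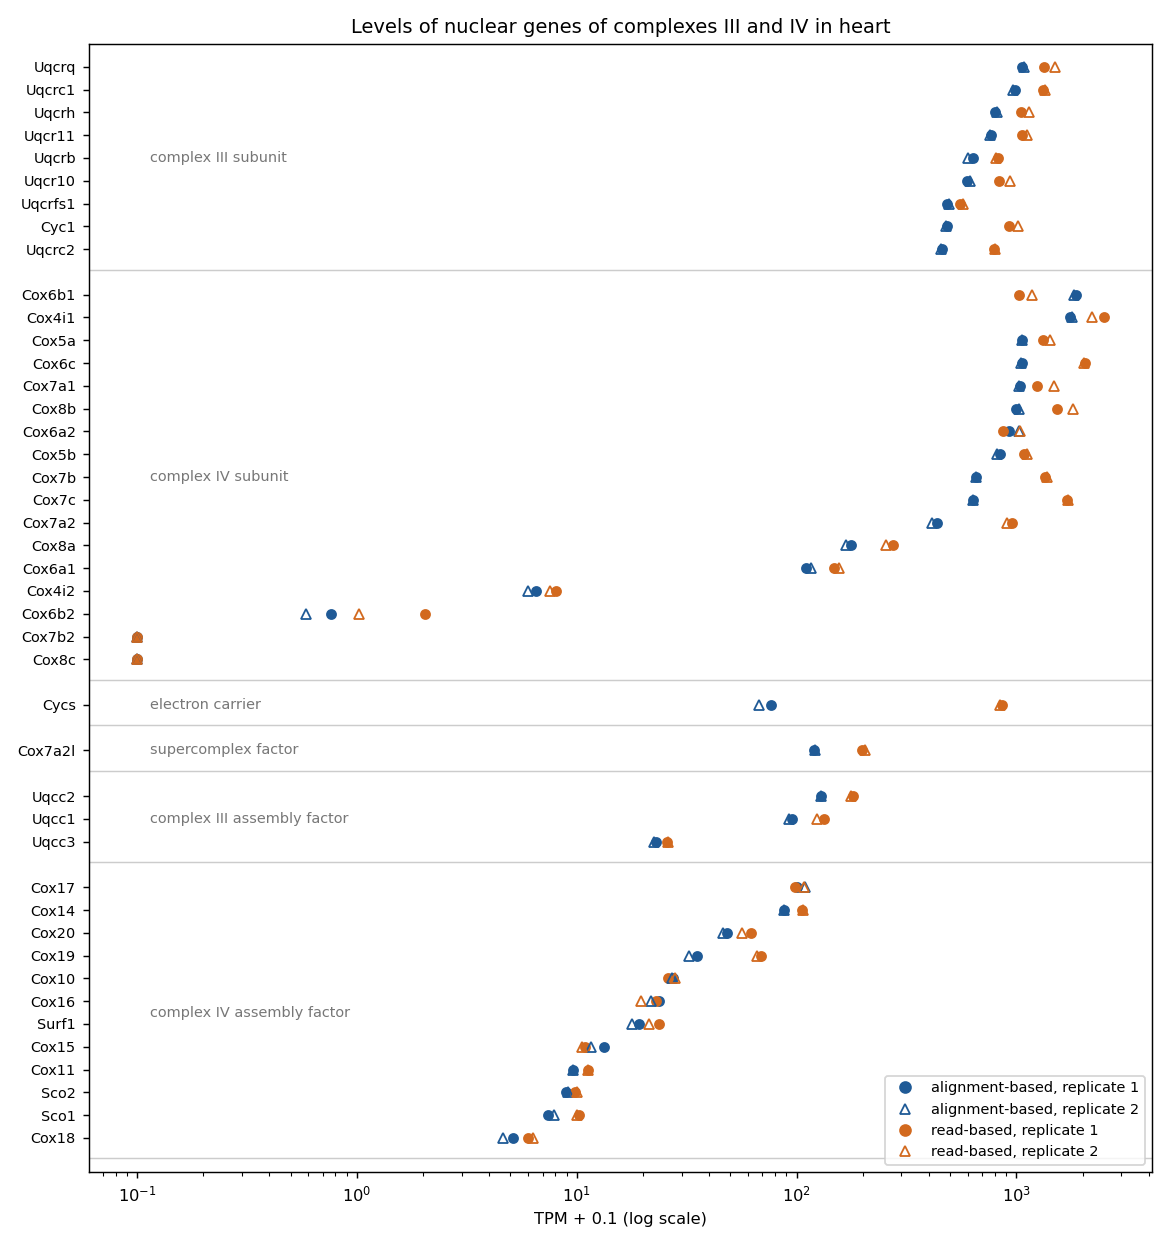
Level of each of the 43 members (TPM + 0.1, log axis) by role, with filled circles for replicate 1 and open triangles for replicate 2, blue for alignment-based and orange for read-based values. Subunits of complex III lie between 455 and 1073 TPM (alignment-based means), assembly factors between 4.76 and 129, and Cycs shows the widest gap between the quantifications.

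The comparison of muscle with ubiquitous isoforms asked which form dominated each of the 3 subunits that have both. The muscle form was the higher in all 3, in both libraries and by both quantifications. Both counts and levels are of bulk tissue, where fewer cells of a type and less RNA per cell cannot be told apart. With 2 libraries a sign-flip test cannot go below p = 0.5 (exact), so none was used.

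Cox6a2, the muscle form of subunit 6a (chr7:128205435-128206387), reached 929 and 1031 TPM against 111 and 116 TPM of Cox6a1 (chr5:115345642-115348981). It made up 89.6% ± 0.355 of the pair, an 8.63 ± 0.329-fold difference in level. Read-based values gave 86.2% ± 1.02.

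Cox8b, the muscle form of subunit 8 (chr7:140898945-140900446), had 991 and 1031 TPM against 178 and 168 TPM of Cox8a (chr19:7215153-7217616). Its share was 85.4% ± 0.827, or 5.86 ± 0.388-fold. The ubiquitous form was thus present at a lower level in both pairs and well above detection.

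Subunit 7a was the least one-sided. Cox7a1, the muscle form (chr7:30184144-30186078), had 1039 and 1029.7 TPM, and Cox7a2 (chr9:79755361-79759878) had 436 and 412 TPM. The muscle share was 70.9% ± 0.681, a 2.44 ± 0.0805-fold difference, and 59.3% ± 4.06 by the read-based tables. The log2 ratio was 1.29 ± 0.05 by the alignments and 0.55 ± 0.24 by the reads. These values count all transcripts. The non-coding transcript Cox7a2-203 held 28.3% ± 5.77 of Cox7a2 by the alignments and 52.6% ± 3.50 by the reads, while Cox7a1 was 100% coding by both.

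**Figure D2:**
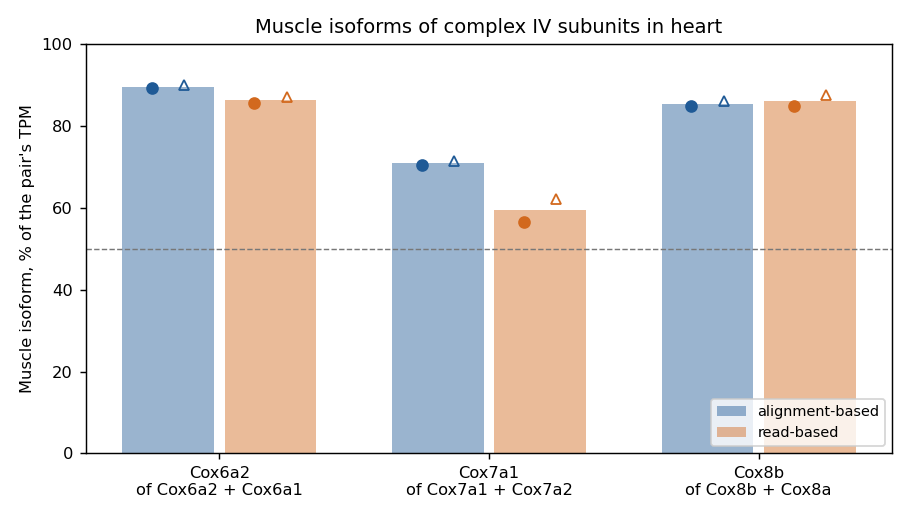
Muscle isoform as a per cent of the summed TPM of the pair (bars, means; filled circles, replicate 1; open triangles, replicate 2) by the alignment-based (blue) and read-based (orange) quantification; the dashed line marks equal levels. Cox7a1 is the nearest to equality, at 70.9% and 59.3%, and Cox6a2 and Cox8b have means between 85.4% and 89.6%.

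Brown fat is another tissue known to use Cox7a1 and Cox8b. Of 6 brown adipocyte markers 4 were detected, none was at 0 in both libraries, and their summed level was 24.5 TPM in replicate 1 and 26.6 in replicate 2. The highest were Cidea at 17.0 ± 0.983 and Ucp1, the uncoupling protein of brown fat, at 4.49 ± 1.90 TPM. The part of such cells in the isoform levels was not tested.

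The remaining isoforms were scarce. Cox4i2, the form of subunit 4 known from lung and under low oxygen, had 6.46 and 5.93 TPM, so that Cox4i1 stood 287 ± 22.2-fold above it. Markers of pericytes were all detected, 6 of 6, with a summed level of 185 and 151 TPM, led by Rgs5 (114 ± 19.5 TPM) and Pdgfrb (17.5 ± 0.700). Smooth muscle markers, also 6 of 6, summed to 735 and 679 TPM. Most of that sum was Des, desmin, at 485 and 491 TPM, which cardiomyocytes also express, and Acta2 followed at 116 ± 23.8 TPM. Which cells held Cox4i2 was not tested.

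The 3 testis isoforms were at or near 0. Cox6b2 was assigned 9 and 6 counts (0.66 and 0.49 TPM), and Cox7b2 and Cox8c had 0 counts in both libraries. A count of 0 allows up to 3 counts per library, or 0.0698 and 0.0702 CPM of the gene totals, counting error only. Of 6 testis germ cell markers 5 were at 0 in both libraries, and Odf1 alone was listed above 0, at 0.03 TPM in replicate 1; Prm1 and the other 4 had none.

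The supercomplex factor Cox7a2l, a relative of the 7a isoforms that links complexes III and IV, had 121 and 121 TPM. Cox7a2 stood 3.51 ± 0.150-fold above it. A pseudogene on chromosome 12 (Gm6969, chr12:24638669-24639010) matches Cox7a2l at 97.95% over 342 bases and held 88.1 and 93.9 TPM. With that copy added to Cox7a2l, the log2 ratio of Cox7a2 over it went from 1.81 to 1.00, an alternative chosen after the data were seen.

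The comparison of subunits with assembly factors asked how far the building blocks exceed the factors that build them. The median of the 26 subunits was 647 and 646 TPM, and that of the 15 assembly factors 23.7 and 22.5 TPM. The log2 ratio of these medians was 4.81 ± 0.05, which leaves the 3 testis isoforms in. All detected protein-coding genes, 10985 of them, had a median of 8.82 ± 0.424 TPM, and 37 of the 43 members lay above it.

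The lists touched only through isoforms. The highest assembly factor was Uqcc2 at 129 TPM in each library, and 21 of 26 subunits were above every assembly factor in both. The other 5 were Cox6a1, Cox4i2, Cox6b2, Cox7b2 and Cox8c. The lowest complex III subunit was 3.55-fold above the highest factor in replicate 1 and 3.50-fold in replicate 2. These comparisons count all transcripts. By the alignments only 31.6% and 32.2% of the subunit Uqcrh lay in transcripts of type protein_coding, against 100% of Uqcc2. Transcript length went with the lists: the members' mean length had a median of 539 bases in subunits and 950 in assembly factors, and its part in the difference was not tested.

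Complex III assembly factors spanned 5.70-fold. Uqcc2 had 129 and 129 TPM and Uqcc1 95.6 and 92.4; the proteins form a pair that binds newly made cytochrome b. Uqcc3, which acts after them, had 22.8 and 22.5 TPM. With all transcripts counted, the order was the same in both libraries and by both quantifications. By the alignments only 15.6% and 16.9% of Uqcc1 lay in transcripts of type protein_coding, against 100% of Uqcc2 and Uqcc3. With those transcripts alone, Uqcc1 was below Uqcc3 by the alignments.

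Complex IV assembly factors spanned 22.1-fold. The copper chaperone Cox17 had 100.5 and 109 TPM and Cox14, which stays with newly made Cox1, 87.2 and 87.9 TPM. By the reads Cox17 had 98.4 and 108 TPM and Cox14 106 and 107 TPM, so no order of this pair is given. The other copper factors were lower: Cox19 at 33.7 ± 1.83, Cox11 at 9.5 in replicate 1 and 9.49 in replicate 2, Sco2 at 8.94 ± 0.113 and Sco1 at 7.54 ± 0.318 TPM.

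Sco1 and Sco2 deliver copper to the same mitochondrially encoded subunit. Sco1 had 7.31 and 7.76 TPM and Sco2 had 8.86 and 9.02 TPM, so Sco2 was the higher in both libraries, with a log2 ratio of Sco1 over Sco2 of -0.24 ± 0.04. By the read-based values the ratio was 0.02 ± 0.04, so no order of this pair is given.

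The enzymes of heme A synthesis differed from each other. Cox10, which makes heme O, had 27.4 and 27.0 TPM, and Cox15, which converts heme O to heme A, had 13.2 and 11.5 TPM. Surf1, needed for early assembly and mutated in Leigh syndrome, had 19.1 and 17.7 TPM. Factors of Cox2 maturation ran from Cox20 (47.1 ± 1.36) over Cox16 (22.7 ± 1.39) to Cox18 (4.76 ± 0.368 TPM), the lowest member detected.

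Other genes of the pathway, from a list of 26 assembly and associated factors, had a median of 22.2 and 21.4 TPM, and 25 of 26 were detected. Ndufa4, now counted as a complex IV subunit, stood apart at 1197 ± 0.318 TPM, within the range of the nuclear subunits above. Next came Higd1a (89.4 ± 3.55), Higd2a (78.7 ± 0.0919), Slirp (65.4 ± 1.19) and Lrpprc (55.2 ± 0.332 TPM), and the proteins of the last pair form a complex that stabilises mitochondrial messenger RNA. Cyct, the testis form of cytochrome c, was at 0 in both.

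The mitochondrially encoded partners were far above the nuclear ones. mt-Cytb, cytochrome b of complex III, had 15199.7 and 15318 TPM, 23.8-fold and 24.8-fold the median of its nuclear partners. mt-Co1 had 36425 and 34500.4 TPM and mt-Co3 17702 and 18205. Together with mt-Co2 they summed to 4.74-fold and 4.58-fold the whole of the 17 nuclear complex IV genes.

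mt-Co2 did not follow its neighbours. It had 685 and 524 TPM, in the range of a nuclear subunit, but 3704 TPM as the mean of the read-based values. Its level is therefore uncertain, and nothing is drawn from its ratio to the nuclear subunits.

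Near-identical copies existed for 14 of the 43 members, 35 copies in all. They were defined after the data were seen as other genes with at least 90% identity over at least 150 bases. The match also had to cover at least 80% of the copy's own transcript. Only 9 copies reached 1 TPM in mean level. For 4 members the copies held over 50 TPM: Cox7c, Cycs, Cox7a2l and Cox5b.

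Cox7c was the clearest. The gene had 9266 and 9569 counts and its copies 6437 and 6770, so copies took 41.0% and 41.4% of the counts. Gm12338, with the sequence printed above, was assigned 5002 and 5294 of these and, being only 192 bases long, 1592 and 1631 TPM, above Cox7c itself at 637 and 634. In the read-based tables all copies were at 0 and Cox7c was at 1698 and 1708 TPM.

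Cycs moved even more. Its own entry held 76.1 and 67.0 TPM, the level of an assembly factor, while its 10 copies held 682 and 644 TPM, or 89.96% and 90.6% of the sum. Most counts lay in Gm10053 on chromosome 19 (chr19:24875686-24876631, plus strand), which matches Cycs at 99.89% over 946 bases and is annotated as protein_coding, with 12702 and 12723 counts. Gm10108, with the differences G4A and G44A, had 238 and 213 TPM. By the read-based tables Cycs reached 862 and 845 TPM, Gm10053 344 and 328, and Gm10108 was at 0.

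The alignment-based level of Cycs was 11.9-fold below the read-based one, the widest gap of any detected member. Its coding transcript Cycs-202 was at like levels by both, 69.4 and 64.0 TPM by the alignments and 73.3 and 68.6 by the reads. The gap lay in the retained intron transcript Cycs-201, whose values are given below. For Cox5b the copy Gm11273 held 96.6 and 92.9 TPM, or 10.3% and 10.2% of the sum, and none by the read-based tables. Adding copies moved the median of complex IV subunits from 657 to 921 TPM; it was 1075 TPM by the reads and 309 TPM with coding transcripts alone. Adding copies left the muscle isoform pairs as they were, since Cox6a2, Cox7a1, Cox7a2, Cox8a and Cox8b have no such copy.

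**Figure D3:**
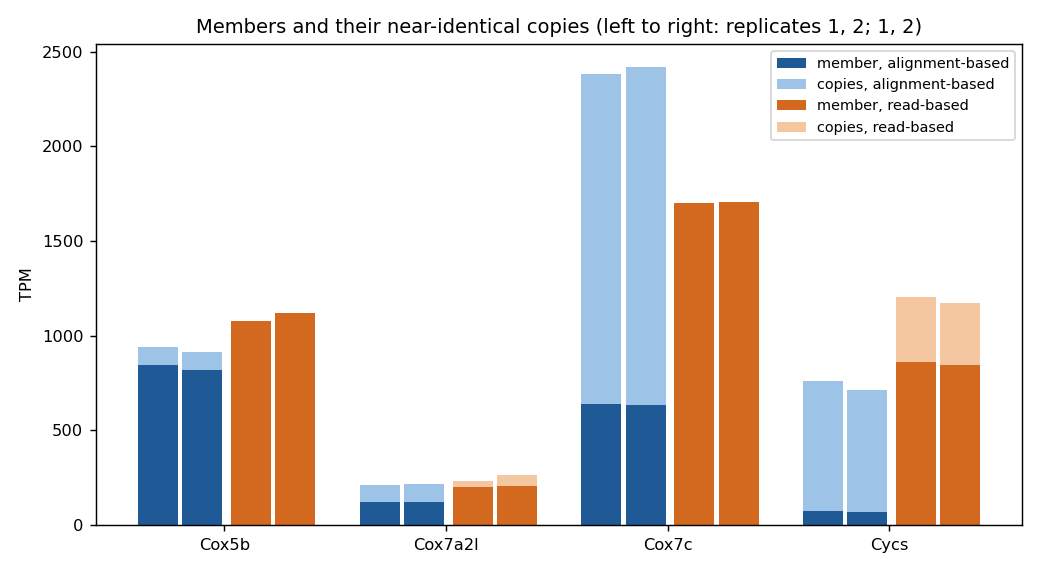
TPM of the 4 members whose copies hold over 50 TPM, stacked as member (dark) and copies (light), with bars for replicates 1 and 2 of the alignment-based values (blue) and then of the read-based values (orange). For Cox7c and Cycs the copies hold most of the alignment-based sum, but none (Cox7c) or the smaller part (Cycs) of the read-based sum.

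Read-based values were higher than alignment-based ones in both libraries for 34 of 40 detected members. The median log2 difference was 0.40, against 0.23 over all detected protein-coding genes. In 11 members the read-based mean was at least 1.5 times the other, among them Cyc1 at 2.01, Cox7b at 2.07, Cox7a2 at 2.19 and Cox7c at 2.68 times. Cox6b1 went the other way, at 0.601 times. No share of all genes is given for these counts of members, so they are a description only.

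Transcripts of type protein_coding held most of the level of most members, with a median of 98.6% over detected members against 93.7% over all detected protein-coding genes. By the read-based tables the medians were 90.02% and 92.1%. Under 50% was found in 6 of 40 members (15%, against 7.10% of all detected genes) and, read-based, in 8 of 40 (20.0% against 9.26%).

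The quantifications often named different transcripts. Of 35 detected members with more than 1 transcript, 19 had the same leading transcript by both in both libraries. Within a quantification the libraries gave the same leader in 35 of 35 (alignment-based) and 30 of 35 (read-based). Among these members replicates thus matched more often than the quantifications did. No such share of all genes is given, so this is not read as a trait of the members.

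Several high subunits were split this way. For Cox7b the retained intron transcript Cox7b-203 held 52.5% in each library by the alignments and 99.8% by the reads. For Uqcrh the retained intron transcript Uqcrh-205 held 67.2% and 66.9%, and 0 by the reads, where Uqcrh-204 led. For Cycs the retained intron transcript Cycs-201 had 6.69 and 3.02 TPM by the alignments and 788 and 776 by the reads.

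In other members the protein-coding leader of the alignments was not the leader by the reads. Uqcr11-201 held 99.6% ± 0.0636 of Uqcr11 and was at 0 in both read-based tables. Cox6a1-201 held 98.6% ± 0.262 of Cox6a1, against 11.4% and 12.7% by the reads. Cox4i1-201, at 87.2% ± 0.742, was at 0 by the reads. There Cox4i1-205, also protein-coding, led with 63.5% and 94.6%. Cox5b showed the reverse, with the non-coding Cox5b-205 at 70.7% ± 2.29 by the alignments and the coding Cox5b-201 in the lead by the reads. The leading transcript of these 4 members depended on the quantification.

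**Figure D4:**
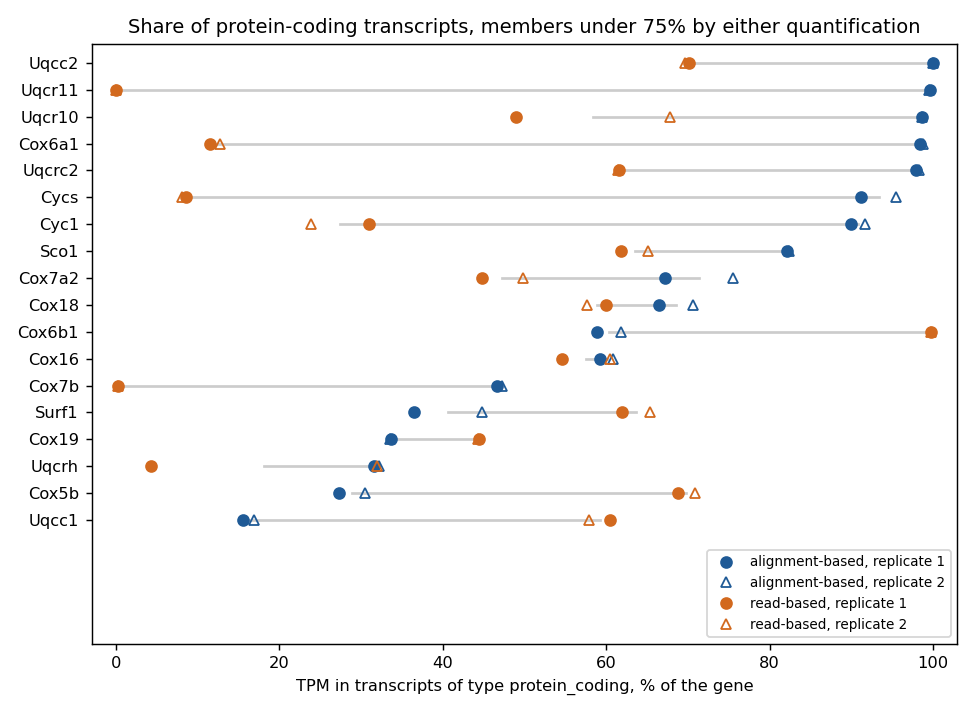
Per cent of each gene's TPM in transcripts of type protein_coding for members under 75% by either quantification (circles, replicate 1; triangles, replicate 2; blue, alignment-based; orange, read-based; grey lines join the means). Points of the same colour lie closer together than points of different colours for most genes, and Uqcr11, Cycs and Cox6a1 lie near opposite ends.

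Promoters were searched for the letters of factors known to act on respiratory genes: CGCATGCG (NRF1), AAGATGGC (YY1) and CCGGAAG (ETS family, which includes GABP), on both strands, in RefSeq windows of GRCm38.p6 from 250 bases before to 50 after the start. Windows were found for 32 of the 43 members. The NRF1 letters were in 4 of 32 (12.5%, against 2.89% of 16519 genes), those of Cycs, Cox6a1, Uqcr11 and Uqcrc1. The YY1 letters were in 3 (9.38% against 3.63%), all of them assembly factors, Cox10, Cox20 and Uqcc2. The ETS letters were in 12 (37.5% against 13.35%), with 5 of 17 subunits and 7 of 13 assembly factors. A match is a description and not a site.

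The stretches of 30 bases that hold such letters upstream of the start are shown for 3 members, with the letters in capitals. The Cycs stretch is chr6:50566612-50566641 and that of Cox6a1 chr5:115349101-115349130, both minus strand, and the Cox20 stretch is chr1:178319067-178319096, plus strand.
Cycs, NRF1 letters: ccatgctagctCGCATGCGcgcgcacaaac
Cox6a1, NRF1 letters: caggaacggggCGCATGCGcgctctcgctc
Cox20, YY1 letters: gaacgctccctAAGATGGCcgccgccgcgc

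The libraries were compared for each member with an exact binomial test, two-sided, of its rounded counts after edgeR TMM scaling, with Benjamini-Hochberg adjustment over the 15839 genes that had a mean of 10 counts or more. This compares 2 libraries, not conditions, and covers counting error only. At an adjusted p under 0.05, a ratio of at least 2 and separate credibility intervals, 0 of 40 members tested differed, against 0.802% of all genes; none reached a ratio of 2 at an unadjusted p under 0.05 either. The 3 testis isoforms had too few counts to be tested.

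At any ratio, 22 of 40 members were higher in replicate 2, against 10.3% of all genes, and 0 were higher in replicate 1, against 10.4%. At an unadjusted p under 0.05 the numbers were 25 and 0, for which no share of all genes is given. The members called were 8 of 9 complex III subunits, 11 of the 14 complex IV subunits tested, 2 of 15 assembly factors (Uqcc1 and Cox17) and Cox7a2l. The differences were small: the median log2 ratio of replicate 2 over replicate 1 was 0.09 over the members and 0.01 over all genes tested.

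Cox6a2 had the largest ratio among the members called. It was assigned 18238 and 20915 counts, a ratio of 1.18 (95% exact interval 1.16 to 1.21, adjusted p = 5.15e-60). Cox8b followed among the muscle isoforms at 1.11 (1.08 to 1.14, adjusted p = 9.71e-11), and Cox7a1 was at 1.05 (1.03 to 1.08, adjusted p = 0.00102).

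Among their ubiquitous partners Cox6a1 had a ratio of 1.12 (1.05 to 1.20, adjusted p = 0.00433). Cox7a2 at 1.04 (1.01 to 1.07, adjusted p = 0.0799) and Cox8a at 1.01 (0.957 to 1.07, adjusted p = 0.872) did not pass. The intervals of Cox7a1 and Cox7a2 overlapped, and the ratios of partners were not tested against each other. Among complex III subunits the ratios ran from 1.01 for Uqcrb (adjusted p = 0.679) to 1.11 for Uqcr10 (adjusted p = 1.36e-08). Cycs had 7204 and 6814 counts and a ratio of 0.976 (0.944 to 1.01, adjusted p = 0.358).

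The direction rested on the scaling. Spike-in totals lowered the median of all genes by 0.11 on the log2 scale. With them only Cox6a2 was called higher in replicate 2, against 3.21% of all genes tested. Cycs and Uqcrb were called higher in replicate 1, 2 of 40 members, against 23.3% of all genes. The members' median was -0.02, still above the -0.10 of all genes. On the deposited TPM scale 15 of 40 detected members were higher in replicate 2, against 30.5% of detected protein-coding genes. The credibility intervals of TPM were separate for 4 of 40 detected members. Cox6a2 was higher in replicate 2 there, and Cycs, Cox7a2 and Uqcrb were higher in replicate 1. No share of all genes is given for this count, so it is a description only. Many members have high counts, and the test calls small ratios more readily at high counts. At a mean count of at least 1000, chosen after the data were seen, 23 of 30 members were called higher in replicate 2. Of all such genes 26.0% were. The part of count depth in the members' calls was not tested.

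Markers of cell types also differed between the libraries, in directions that varied by list. All 8 cardiomyocyte markers were called higher in replicate 2; their sum was 38025 and 39611 TPM and their median log2 ratio 0.14. Of 7 endothelial markers 6, and of 7 fibroblast markers 5, were called higher in replicate 1, with summed levels of 664 and 514 and of 907 and 751 TPM. The leading ones were Fabp4 (283 ± 44.4) and Ly6c1 (94.3 ± 29.95), and Gsn (344 ± 35.6) and Dcn (159 ± 9.24 TPM).

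Macrophage markers gave 3 of 6 called higher in replicate 1, led by Lyz2 (45.7 ± 7.38) and C1qb (15.8 ± 4.02 TPM), with sums of 108 and 84.4 TPM. Smooth muscle markers gave 4 of 6 higher in replicate 1, and Des alone was higher in replicate 2. Pericyte markers gave 2 of 6 higher in replicate 1, and erythroid markers, led by Hbb-bs (3863 ± 34.6) and Hba-a1 (3352 ± 227 TPM), 3 of 6 higher in replicate 1 and 2 in replicate 2, with sums of 11301 and 10824 TPM. Liver markers were higher in replicate 2 in 7 of 7, with sums of 2.83 and 27.0 TPM and Alb and Cyp2e1 at 13.4 and 6.45 TPM in that library. Brown adipocyte markers gave 2 of 6 higher in replicate 2 (Ucp1, at 3.14 and 5.83 TPM, and Plin1) and 1, Dio2, higher in replicate 1. Their median log2 ratio was 0.46. The part of cell makeup in the members' ratios was not tested.

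The 26 other assembly and associated factors gave 3 of 25 tested higher in replicate 2 and 0 higher in replicate 1; their median log2 ratio was 0.09, the value of the members. Of the 4 mitochondrially encoded subunits 3 were higher in replicate 2 and mt-Co2 was higher in replicate 1. The shift of the members was thus of a like size in the less abundant factors, where fewer genes passed.

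**Figure D5:**
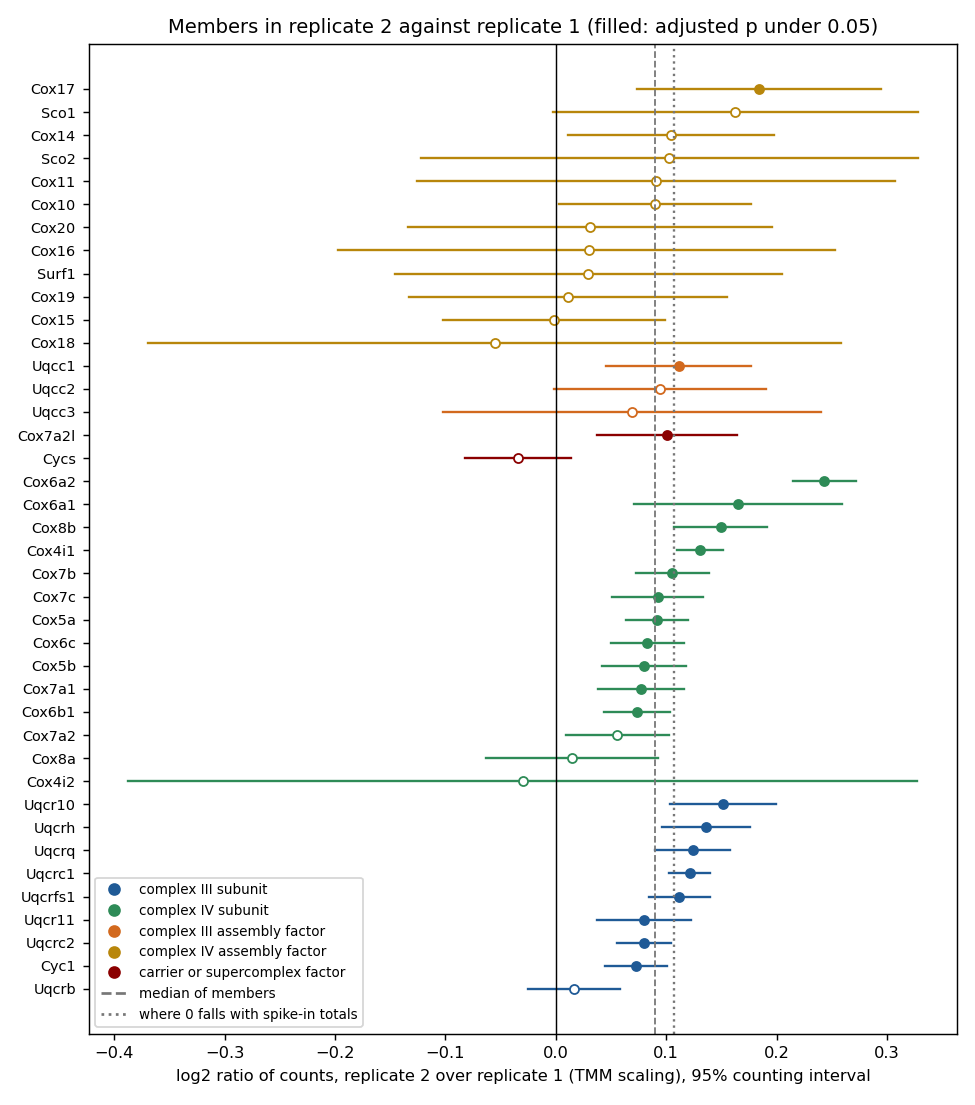
Log2 ratio of counts, replicate 2 over replicate 1, for the 40 members tested, with 95% exact counting intervals, coloured by role and filled where the adjusted p is under 0.05. Most members lie to the right of 0, and the dotted line shows where 0 would fall with spike-in totals; Cox6a2 has the largest ratio, with its interval above both lines.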

How the data were processed

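Expected counts and TPM of genes and transcripts were made by the authors from transcriptome alignments, and estimated counts and TPM per transcript from 1 FASTQ file of each library, both with mm10 and GENCODE M21, per the deposited listings. The software was not given in the sources used here, though the headers use the column names of RSEM and of kallisto. Counts were deposited without normalization, and TPM was scaled by the authors over all entries, spike-ins included. Credibility intervals on TPM were deposited as score columns for their lower and upper bound, with no level stated. The alignment-based transcript tables also held, as deposited, each transcript's percent of its gene.

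Members and lists were chosen with earlier results of these data known. All members were named; of the other factors the 5 highest, and of each marker list the 2 highest, with all 4 mitochondrial genes. Genes named outside this rule, such as the copies, were chosen after their values were seen. Detection was 1 TPM in both libraries, with a pseudocount of 0.1 added to TPM before log2 ratios. The 96 ERCC entries were left out of gene totals. Library totals differed by little, and precision at low counts is given by exact intervals at 95%. As only 1 group exists, libraries were compared with an exact binomial test on rounded counts in place of a model of replicate spread, scaled by TMM (edgeR 4.0.16, run in R 4.3.3). Copies were found with blastn 2.17.0 in the GENCODE M21 transcripts. The test was tried on simulated data for this comparison (15839 genes, counting noise alone): 30 of 200 genes changed by 1.1-fold, 134 at 1.5-fold and 185 at 3-fold were called, and 33 of 15039 unchanged ones. The remaining steps ran in Python 3.11.15 with scipy 1.17.1, numpy 2.4.6, matplotlib 3.10.9 and pandas 2.3.3. Alternatives were read-based values, posterior mean TPM, coding transcripts alone, other thresholds and pseudocounts, DESeq2 1.42.0 size factors, total counts, spike-in totals, and each replicate left out.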

Additional observations from a re-analysis of the deposited data

How the results depend on the processing

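The muscle isoform stayed the higher of each pair under every alternative run. With read-based values the log2 ratios were 2.65 (Cox6a2 over Cox6a1, against 3.11), 0.55 (Cox7a1 over Cox7a2, against 1.29) and 2.65 (Cox8b over Cox8a, against 2.55); with coding transcripts alone Cox7a1 over Cox7a2 was 1.78. Leaving out a replicate gave 3.07 to 3.15, 1.25 to 1.32 and 2.48 to 2.62. The log2 ratio of subunit over assembly factor medians, 4.81, became 5.32 (read-based), 5.31 (coding transcripts alone), 4.94 (copies added) and 5.04 (detected members alone), and 4.77 to 4.85 with a replicate left out. Sco1 over Sco2 turned to 0.025 with read-based values. Against 22 and 0 of 40 members higher in replicates 2 and 1, spike-in totals gave 1 and 2. The shares of all genes were 3.21% and 23.3%, and the members' median log2 ratio was -0.017. Total counts gave 15 and 1 (Cycs), against 6.79% and 13.2% of all genes. With a ratio of 2, no setting called a member. The causes were not tested. No paired analysis was possible because the series has a single group. Depth limits the low factors: at 178 and 166 counts, the interval for Cox18 ran from 0.774 to 1.20.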
